A study of Rattus norvegicus with 32 samples.

Results

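The genes that build and run motile cilia were followed across the 32 rat uterus libraries of a study of low-dose bisphenol A (BPA). Members were chosen by symbol: rat genes whose names begin with Dnah, Dnai, Dnaaf, Cfap, Drc, Rsph or Tekt, plus Foxj1, Rfx2, Rfx3, Ccdc39, Ccdc40, Spag6l, Spag16, Dynlrb2, Spata18, Gas2l2, Saxo2, Lrrc34 and Fbxl13. The counts table held 68 of them among 17327 genes. A further 43 rat symbols that meet the rule, among them Mcidas, Spag17, Hydin and all Dnah genes other than Dnah1, were not analysed here. Levels are CPM, counts of a gene relative to its library size, with library sizes scaled by the trimmed mean of M values. They are compared between libraries for 1 gene, not between genes, because transcript lengths were not used.

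All libraries came from the uterus of Sprague-Dawley rats of the NCTR colony, with 4 libraries in each of 8 groups. Dams were gavaged from gestation day 6 until labor began, and pups were then gavaged directly from postnatal day 1 to the end of the study at PND365. Ethinyl estradiol (EE2), an orally active estrogen, was the second agent, with daily doses per kg body weight of 0.05 and 0.5 µg. The 5 daily BPA doses per kg were 2.5, 25, 250, 2500 and 25000 µg, and controls received the vehicle, 0.3% carboxymethylcellulose. Groups are named below by agent and dose. No animal, litter or estrous stage is named in the labels, and the p-values therefore reflect only how these libraries vary, which may be technical.

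A motile cilium is a microtubule axoneme whose outer and inner dynein arms slide neighbouring doublets past each other, under the control of the dynein regulatory complex, the radial spokes and the central pair. Dynein arms are assembled in the cytoplasm by dedicated factors before they enter the cilium, and most of these parts are switched on together by FOXJ1 with RFX factors. In the female tract, multiciliated cells are typical of the oviduct and also occur in the uterine epithelium.

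RFX factors bind the X-box, a motif made of paired half-sites. RefSeq promoter sequences (assembly GRCr8, the 250 bases before each annotated start) were found for 56 members, and Foxj1 had no entry. On either strand, the letters GTTGCC stood in 17 of the 56 member promoters (30.4%), against 9.9% of 27457 rat promoters. Paired letters, GTTNCC followed after 2 or 3 bases by GNAAC, stood in 9 member promoters (16.1%), against 1.05% of all promoters, and the GTTGCC letters can overlap such a pair. The forkhead letters TGTTTAC stood in 2 member promoters (3.57%), against 3.25% of all. Among the 56, 31 were over 10-fold above the control mean, with at least 100 counts, in BPA 2.5 library 1. Of these 31, GTTGCC stood in 8 (25.8%), paired letters in 6 (19.4%) and TGTTTAC in 0. The letters were chosen with the sequences in view, and a match is a description of the letters only. The promoters of 5 members that were high in BPA 2.5 libraries 1 and 3 are shown, 5′ to 3′ on the strand of the gene, with the paired letters in capitals, or for Spag6l the GTTGCC letters. These 5 promoters all hold such letters and do not stand for all high members. Their positions are chr19:61428830-61429079 (plus strand) for Dynlrb2, chr10:100258772-100259021 (plus strand) for Dnai2, chr5:143907725-143907974 (minus strand) for Tekt2, chrX:108512752-108513001 (plus strand) for Dnaaf6 and chr11:97677590-97677839 (plus strand) for Spag6l.
Dynlrb2: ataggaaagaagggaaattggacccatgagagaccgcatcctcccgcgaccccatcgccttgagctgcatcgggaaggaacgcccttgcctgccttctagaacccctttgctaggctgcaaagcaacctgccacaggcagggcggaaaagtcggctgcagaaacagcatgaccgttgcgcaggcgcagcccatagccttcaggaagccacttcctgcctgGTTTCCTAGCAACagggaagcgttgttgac
Dnai2: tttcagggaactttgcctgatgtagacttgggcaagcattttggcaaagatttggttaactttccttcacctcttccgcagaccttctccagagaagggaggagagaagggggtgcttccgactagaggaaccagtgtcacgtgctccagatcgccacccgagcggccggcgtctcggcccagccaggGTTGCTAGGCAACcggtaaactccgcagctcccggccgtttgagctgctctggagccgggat
Tekt2: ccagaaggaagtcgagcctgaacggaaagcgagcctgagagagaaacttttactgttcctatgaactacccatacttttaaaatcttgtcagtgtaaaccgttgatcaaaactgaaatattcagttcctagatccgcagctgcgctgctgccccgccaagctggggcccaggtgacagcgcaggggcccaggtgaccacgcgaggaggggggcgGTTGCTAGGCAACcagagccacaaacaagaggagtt
Dnaaf6: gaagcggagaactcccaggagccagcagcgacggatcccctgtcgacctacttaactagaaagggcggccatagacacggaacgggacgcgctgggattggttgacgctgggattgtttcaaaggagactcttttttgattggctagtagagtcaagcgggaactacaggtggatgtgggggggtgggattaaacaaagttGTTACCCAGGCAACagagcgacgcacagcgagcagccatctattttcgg
Spag6l: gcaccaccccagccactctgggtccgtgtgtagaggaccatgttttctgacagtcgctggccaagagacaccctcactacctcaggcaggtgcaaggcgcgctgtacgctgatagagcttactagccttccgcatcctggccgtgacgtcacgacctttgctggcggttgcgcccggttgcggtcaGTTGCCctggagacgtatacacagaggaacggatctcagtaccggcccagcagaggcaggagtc

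Total counts per library ran from 11777809 to 24661856, so that 3 counts in the smallest library correspond to 0.255 CPM. Over all genes, 4 libraries had the lowest median correlation with the others: BPA 2.5 library 1 (0.952), BPA 2.5 library 3 (0.961), BPA 250 library 1 (0.963) and BPA 25000 library 3 (0.969). Of the 68 members, 62 had enough counts to be tested. Members that passed this filter do not stand for all members, because 33 of the 62 reached the filter's level of 0.647 CPM in all 4 control libraries, and 60 reached it in 4 or more libraries outside BPA 2.5. Cfap68, Cfap97d1, Rsph6a, Spag16, Tekt5 and Tektl1 were not tested, with 52, 2, 109, 84, 29 and 10 counts over all libraries. All exposed groups were compared with the same 4 control libraries.

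**Figure D1:**
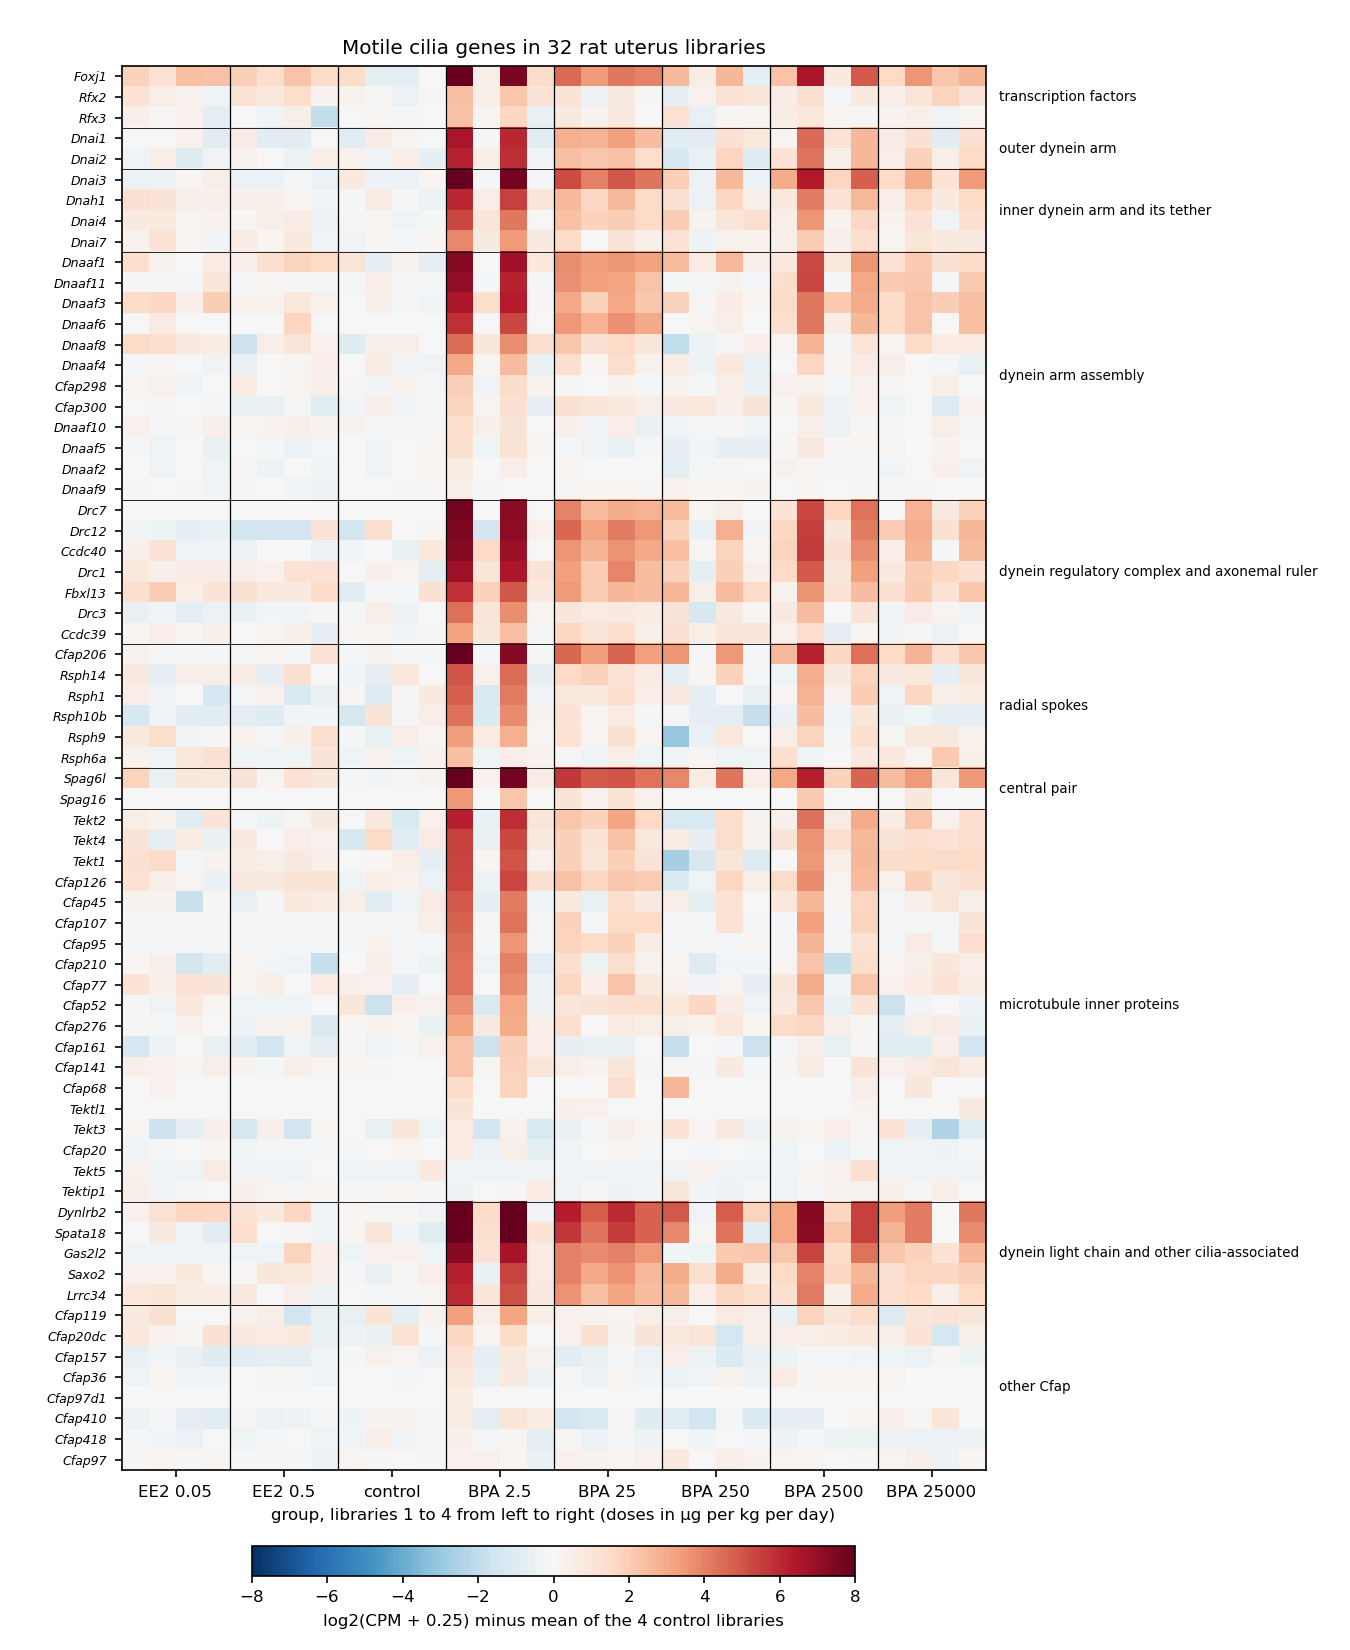
Heat map of the 68 cilia genes (rows, grouped by role) in the 32 libraries (columns, libraries 1 to 4 of each group from left to right). Colour is log2(CPM + 0.25) minus the mean of the 4 control libraries. BPA 2.5 libraries 1 and 3 are dark red across most roles. BPA 2500 library 2 is paler, and BPA 2500 library 4 and the 4 BPA 25 libraries are paler again. Rows such as Cfap97 and Tektip1 stay near white throughout.

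Cilia genes were far higher in BPA 2.5 libraries 1 and 3 than in any control library, while BPA 2.5 libraries 2 and 4 lay near control. Summed over the members, the level was 4757, 677, 3249 and 586 CPM in BPA 2.5 libraries 1 to 4, against 626, 751, 616 and 644 CPM in control libraries 1 to 4. The members took 0.522% and 0.372% of all counts in BPA 2.5 libraries 1 and 3, against 0.0596% to 0.0713% in the control libraries. Of the 68 members, 64, 21, 60 and 19 lay above the highest control library in BPA 2.5 libraries 1 to 4. In bulk tissue, more cells of a type and more RNA per cell cannot be told apart. By edgeR's quasi-likelihood test with Benjamini-Hochberg adjustment over 13312 genes and a threshold of 0.05, 47 of the 62 tested members rose at BPA 2.5 and 0 fell. Over all genes tested, 7.06% were called higher, 4.39% lower and 11.4% in either direction. The median log2 fold change of the tested members was 3.59, against 0.05 for all genes tested.

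Those calls rested on BPA 2.5 libraries 1 and 3. Without both, the only member called at BPA 2.5 was Cfap20, which was lower (log2 fold change -0.61), against 2.97% of all genes called in either direction. When only the BPA 2.5 and control libraries were fitted, 43 of the 62 members had enough counts to be tested. Of these 43, 0 were called by edgeR, and the lowest adjusted p was 0.0742, for Rfx2. In that fit, 0.457% of all genes were called. Only 10 of the 68 members had all 4 BPA 2.5 libraries above all 4 control libraries, against 6.45% of all genes tested: Cfap141, Cfap276, Dnaaf8, Dnai7, Drc1, Gas2l2, Lrrc34, Rfx2, Spag6l and Spata18.

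Among the transcription factors, Foxj1, the forkhead factor that starts the motile cilium program, had 95.8, 0.308, 73.6 and 0.892 CPM in BPA 2.5 libraries 1 to 4, against 0.862, 0, 0 and 0.139 CPM in control libraries 1 to 4. The groups overlapped, because only libraries 1 and 3 of BPA 2.5 were clearly above control. Foxj1 rose by 7.47 ± 1.54 on the log2 scale (SE; n = 4 each; edgeR adjusted p = 0.00396). The log2 fold change of Foxj1 was 1.34 ± 1.42 without BPA 2.5 libraries 1 and 3 (SE; edgeR adjusted p = 0.728). Rfx2 and Rfx3 bind X-boxes and were already detected in every control library. Rfx2 had 49.4, 13.4, 43.6 and 18.9 CPM in BPA 2.5 libraries, against 11.3, 9.77, 6.52 and 9.61 CPM in control libraries, with no overlap, and rose by 1.75 ± 0.43 (edgeR adjusted p = 0.01). Rfx3 had 25.6, 5.7, 15.5 and 3.06 CPM in BPA 2.5 libraries, against 4.83, 5.03, 4.49 and 4.88 CPM in control libraries. It did not pass the test (log2 fold change 1.37 ± 0.49, edgeR adjusted p = 0.064).

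Genes of the dynein motors were high in the same libraries as Foxj1. Both outer arm genes measured rose at BPA 2.5, with a median log2 fold change of 5.85, and so did all 4 genes of the inner arm and its tether, with a median of 4.41. Dnai1, an outer arm intermediate chain, had 42, 0.154, 29.5 and 0 CPM in BPA 2.5 libraries, against 0, 0.444, 0.29 and 0.209 CPM in control libraries. Its partner Dnai2 had 51.6, 0.77, 43.2 and 0.382 CPM in BPA 2.5 libraries, against 0.69, 0.37, 0.797 and 0.209 CPM in control libraries. In both genes, only BPA 2.5 libraries 1 and 3 lay above the control range. The log2 fold changes were 6.17 ± 1.54 for Dnai1 (edgeR adjusted p = 0.0105) and 5.53 ± 1.19 for Dnai2 (edgeR adjusted p = 0.00446). That of Dnai1 turned to -1.63 without BPA 2.5 libraries 1 and 3.

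Dnah1, an inner arm heavy chain and the only heavy chain analysed here, had 458, 9.93, 315 and 13.3 CPM in BPA 2.5 libraries, against 6.38, 10.2, 6.3 and 5.01 CPM in control libraries. It was the member whose log2 CPM over the 32 libraries was most like the mean of the other members (Pearson r = 0.977; a description, since library depth and makeup are shared). Dnah1 rose by 4.83 ± 0.88 (SE; n = 4 each; edgeR adjusted p = 0.00301), while leaving out BPA 2.5 libraries 1 and 3 gave 0.73 ± 0.62 (edgeR adjusted p = 0.637). Dnai3, an intermediate chain of the inner arm, had 119, 0.077, 68.5 and 0.0637 CPM in BPA 2.5 libraries, against 0.345, 0, 0 and 0.139 CPM in control libraries. It rose by 8.59 ± 1.75 (edgeR adjusted p = 0.00392), while Dnai4 rose by 3.98 ± 0.79 (edgeR adjusted p = 0.00349) and Dnai7 by 2.85 ± 0.54 (edgeR adjusted p = 0.00329). Dnai4 and Dnai7 had higher baselines, with control libraries between 6.16 and 9.47 CPM in both genes.

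Dynein arm assembly factors were divided. Of the 12 tested, 8 rose at BPA 2.5, and the median log2 fold change was 1.60. Dnaaf3, needed to preassemble the arms, had 48.6, 1.16, 39.9 and 0.319 CPM in BPA 2.5 libraries, against 0.259, 0.444, 0.217 and 0.209 CPM in control libraries. Only BPA 2.5 library 4 lay within the control range, and Dnaaf3 rose by 6.28 ± 1.06 (edgeR adjusted p = 0.00261). Dnaaf1 had 59.4, 0.154, 40 and 0.446 CPM in BPA 2.5 libraries, against 0.517, 0, 0.217 and 0 CPM in control libraries, and rose by 7.11 ± 1.44 (edgeR adjusted p = 0.00379). Dnaaf6, whose promoter is printed above, had 14.2, 0, 10.1 and 0 CPM in BPA 2.5 libraries and no counts in the control libraries. Its 375 counts over the BPA 2.5 group, all from libraries 1 and 3, made the group at least 112-fold higher against a floor of 3 counts over the control group. Dnaaf2, another assembly factor, had 89.7, 58.4, 86.6 and 58.4 CPM in BPA 2.5 libraries, against 59.8, 51.8, 60.1 and 66.4 CPM in control libraries. The same BPA 2.5 libraries were highest for Dnaaf2, but its log2 fold change was 0.30 ± 0.18 and did not pass the test (edgeR adjusted p = 0.283). Dnaaf5, Dnaaf9 and Cfap300 did not pass either, with log2 fold changes of 0.70, 0.11 and 0.88.

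All 7 genes of the dynein regulatory complex and the axonemal ruler rose at BPA 2.5, with a median log2 fold change of 6.45. Drc1, which anchors the regulatory complex, had 44.9, 0.539, 35 and 0.574 CPM in BPA 2.5 libraries, against 0.172, 0.296, 0.217 and 0 CPM in control libraries. The groups did not overlap, although libraries 2 and 4 cleared the control range only narrowly. Drc1 rose by 6.83 ± 1.31 (edgeR adjusted p = 0.00332). Drc7 had 49.6, 0, 36.7 and 0 CPM in BPA 2.5 libraries and no counts in any control or EE2 library. Its 1334 counts over the BPA 2.5 libraries were at least 398-fold higher than the floor (edgeR adjusted p = 0.0122). Ccdc40, part of the ruler that sets the spacing of dynein arms and spokes, had 112, 1.85, 83.7 and 0.446 CPM in BPA 2.5 libraries, against 0.345, 0.444, 0.217 and 0.975 CPM in control libraries, and rose by 6.60 ± 1.30 (edgeR adjusted p = 0.00345). Its partner Ccdc39 had 315, 62.4, 176 and 29.5 CPM in BPA 2.5 libraries, against 36.6, 38.7, 28.3 and 29.7 CPM in control libraries. Ccdc39 rose by 2.13 ± 0.46 (edgeR adjusted p = 0.00429), the smallest change of the 7. Drc3 and Fbxl13, 2 other subunits of the regulatory complex, rose by 3.24 ± 0.63 and 4.89 ± 0.96 (both edgeR adjusted p = 0.00345).

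Genes of the radial spokes and the central pair rose in every tested case. All 5 tested spoke genes were called at BPA 2.5, with a median log2 fold change of 3.64. Rsph1, a spoke head protein, had 38.9, 0.385, 24.4 and 0.956 CPM in BPA 2.5 libraries, against 1.29, 0.444, 1.23 and 2.16 CPM in control libraries, and rose by 3.64 ± 0.92 (edgeR adjusted p = 0.0113). Libraries 2 and 4 of BPA 2.5 lay within or below the control range, and without libraries 1 and 3 the log2 fold change of Rsph1 was -0.93. Cfap206, found at the spoke base, had 68.6, 0, 40.5 and 0 CPM in BPA 2.5 libraries, against 0, 0.074, 0 and 0 CPM in control libraries. Its 1690 counts in the BPA 2.5 libraries, all from libraries 1 and 3, against 1 count in the control libraries gave a ratio of 1514 with an exact 95% interval of 271 to 59825 that covers counting error only. Spag6l, a central pair protein, had 110, 0.231, 75.9 and 0.319 CPM in BPA 2.5 libraries, against 0.0862, 0.074, 0.145 and 0.209 CPM in control libraries. All 4 BPA 2.5 libraries were above control, although libraries 2 and 4 stood close to it. Spag6l rose by 8.39 ± 1.63 (edgeR adjusted p = 0.00345). The other central pair gene in the table, Spag16, was too low to test, with 54 counts in BPA 2.5 libraries 1 and 3, none in libraries 2 and 4, against 0 in the control libraries.

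Proteins inside the doublet microtubules formed the largest role. Of the 16 tested, 12 rose at BPA 2.5, with a median log2 fold change of 3.34 over the 16. Tekt1, a tektin filament protein, had 66.7, 1.54, 50.4 and 1.72 CPM in BPA 2.5 libraries, against 1.38, 1.48, 1.88 and 0.766 CPM in control libraries, and rose by 4.44 ± 0.99 (edgeR adjusted p = 0.00546). Tekt2 had 42.1, 0.154, 33.9 and 0.892 CPM in BPA 2.5 libraries, against 0.345, 0.74, 0 and 0.487 CPM in control libraries, and rose by 5.58 ± 1.33 (edgeR adjusted p = 0.00817). In both tektins, the high libraries were 1 and 3. Tekt4 rose by 4.28 ± 0.97 (edgeR adjusted p = 0.00621), Cfap45 by 3.67 ± 0.88 (edgeR adjusted p = 0.0083) and Cfap52 by 2.28 ± 0.73 (edgeR adjusted p = 0.0409). Tekt3, Tektip1 and Cfap20 did not pass, with log2 fold changes of -0.26, 0.12 and 0.08. Cfap20, which sits at the junction of the doublet tubules, had 45.1, 20.6, 39.6 and 17.6 CPM in BPA 2.5 libraries, against 26.2, 28.7, 33.3 and 28.3 CPM in control libraries, so that libraries 2 and 4 lay below every control library.

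The remaining members split by name. The dynein light chain Dynlrb2 and the cilia-associated genes Gas2l2, Saxo2, Spata18 and Lrrc34 all rose at BPA 2.5, with a median log2 fold change of 7.93. Dynlrb2 had 226, 0.616, 134 and 0 CPM in BPA 2.5 libraries, against 0.0862, 0.074, 0.0725 and 0 CPM in control libraries. Its 5589 counts against 3 gave a ratio of 1669, with an exact 95% interval of 571 to 8094 that covers counting error only. Spata18 had 270, 0.847, 162 and 0.701 CPM in BPA 2.5 libraries, against 0.259, 0.592, 0.145 and 0 CPM in control libraries, and rose by 8.75 ± 1.79 (edgeR adjusted p = 0.00393). Lrrc34 had 156, 4.31, 83 and 3.89 CPM in BPA 2.5 libraries, against 2.16, 2.07, 2.1 and 2.58 CPM in control libraries, and rose by 4.79 ± 0.88 (edgeR adjusted p = 0.00319). Its groups did not overlap. Of the 7 other tested Cfap genes, whose place in the axoneme was not assigned, 1 rose (Cfap119), and the median log2 fold change was 0.45.

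**Figure D2:**
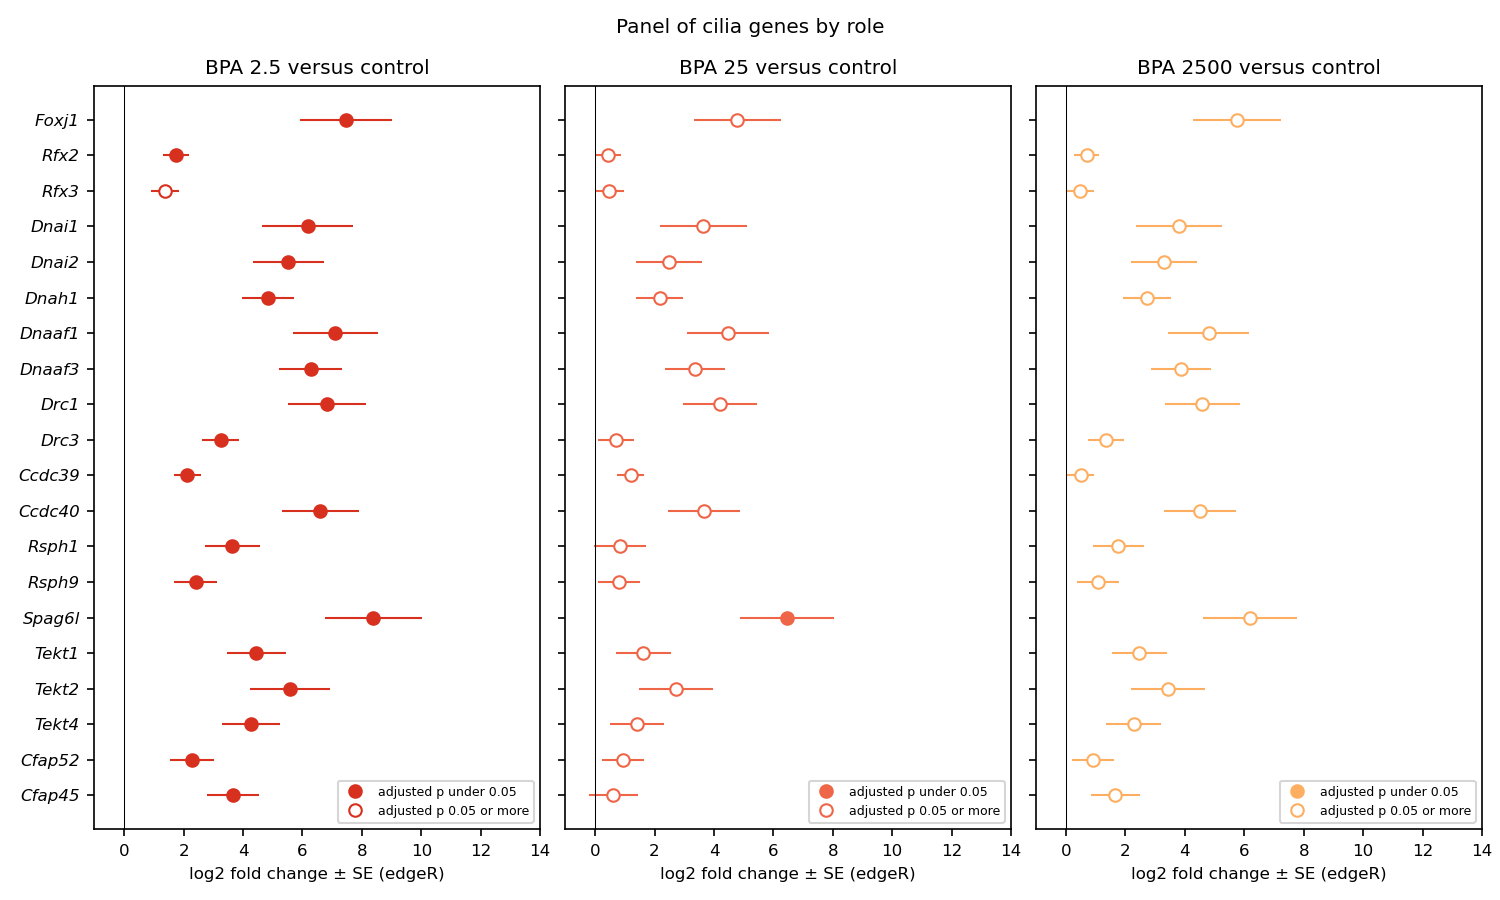
Log2 fold change (horizontal axis, edgeR, bars 1 SE) of 20 cilia genes at BPA 2.5, BPA 25 and BPA 2500 versus control. Filled points have an adjusted p under 0.05. At BPA 2.5 all points but Rfx3 are filled, at BPA 25 Spag6l is filled (6.46 ± 1.58), and at BPA 2500 points lie right of 0 but none is filled.

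At BPA 25, the cilia genes stood above control by less than in BPA 2.5 libraries 1 and 3, and more evenly over the libraries. Summed over the members, the level was 1103, 776, 1016 and 743 CPM in BPA 25 libraries, against 626, 751, 616 and 644 CPM in control libraries. By edgeR, 4 of 62 tested members rose at BPA 25 and 0 fell, while 0.954% of all genes were called higher, 0.969% lower and 1.92% in either direction. The 4 were Spag6l, Saxo2, Lrrc34 and Dynlrb2. A further 25 members had an unadjusted p under 0.05 without passing, which makes 29 in all, against 24.4% of all genes. The median log2 fold change of the tested members was 1.30, against 0.00 for all genes tested. Of the 62, 25 reached the filter's level in 4 BPA 25 libraries but not in 4 control libraries. This median and the counts among the tested members are therefore descriptions. Of the 68 members, 32 had all 4 BPA 25 libraries above all 4 control libraries, 31 of them among the 62 tested, against 10.2% of all genes tested. None of the 68 had all 4 below, against 9.79% of all genes tested.

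Spag6l had 18.8, 10.9, 11.8 and 7.39 CPM in BPA 25 libraries, a mean of 12.2 ± 4.76 CPM (SD, n = 4), against 0.129 ± 0.0619 CPM in control libraries (SD, n = 4). It rose by 6.46 ± 1.58 on the log2 scale (edgeR adjusted p = 0.0393). Saxo2, which binds axonemal microtubules, had 5.77, 2.79, 4.18 and 1.98 CPM in BPA 25 libraries, against 0.0862, 0, 0.145 and 0.279 CPM in control libraries, and rose by 4.74 ± 1.20 (edgeR adjusted p = 0.0422). Both genes were above control in every BPA 25 library. Lrrc34 had 29.9, 12.9, 21.3 and 13.7 CPM in BPA 25 libraries, against the 2.07 to 2.58 CPM of control libraries, and rose by 3.12 ± 0.83 (edgeR adjusted p = 0.0473). Dynlrb2 had 23.8, 8.57, 18.6 and 7.68 CPM in BPA 25 libraries, against 0 to 0.0862 CPM in control libraries (edgeR adjusted p = 0.0497), and the ratio of its summed counts was 254 (exact 95% interval 86.6 to 1235). Libraries 1 and 3 were the higher pair of BPA 25 in Saxo2, Lrrc34, Dynlrb2 and, narrowly, Spag6l, by a much smaller margin than at BPA 2.5.

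Several members missed the threshold narrowly at BPA 25. Foxj1 had 9.16, 4.01, 7.31 and 6 CPM in BPA 25 libraries, all above the highest control library at 0.862 CPM, with a log2 fold change of 4.78 ± 1.47 (edgeR adjusted p = 0.0635). Dnah1 had 42.6, 22.1, 41.2 and 20 CPM in BPA 25 libraries, against at most 10.2 CPM in control libraries. The spread at BPA 2.5 enters this test, because all 8 groups share 1 estimate of it. When only the BPA 25 and control libraries were fitted, 27 of 58 tested members were called by edgeR, all higher, and 9.63% of all genes were. Spag6l then rose by 6.44 ± 0.45 (edgeR adjusted p = 0.00142), Foxj1 by 4.77 ± 0.87 (edgeR adjusted p = 0.0232) and Dnah1 by 2.17 ± 0.32 (edgeR adjusted p = 0.0131). Leaving BPA 2.5 libraries 1 and 3 out of the fit over all groups, 21 members were called at BPA 25, against 4.44% of all genes. When 1 library of BPA 25 or control was left out, 8 members were called without BPA 25 library 4 (3.89% of all genes) and 0 without any of the other 7, so none of the 4 calls held throughout. Calls over all genes fell to at most 0.506% in those 7 fits, and to 0 genes without BPA 25 library 1, control library 2 or control library 4.

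**Figure D3:**
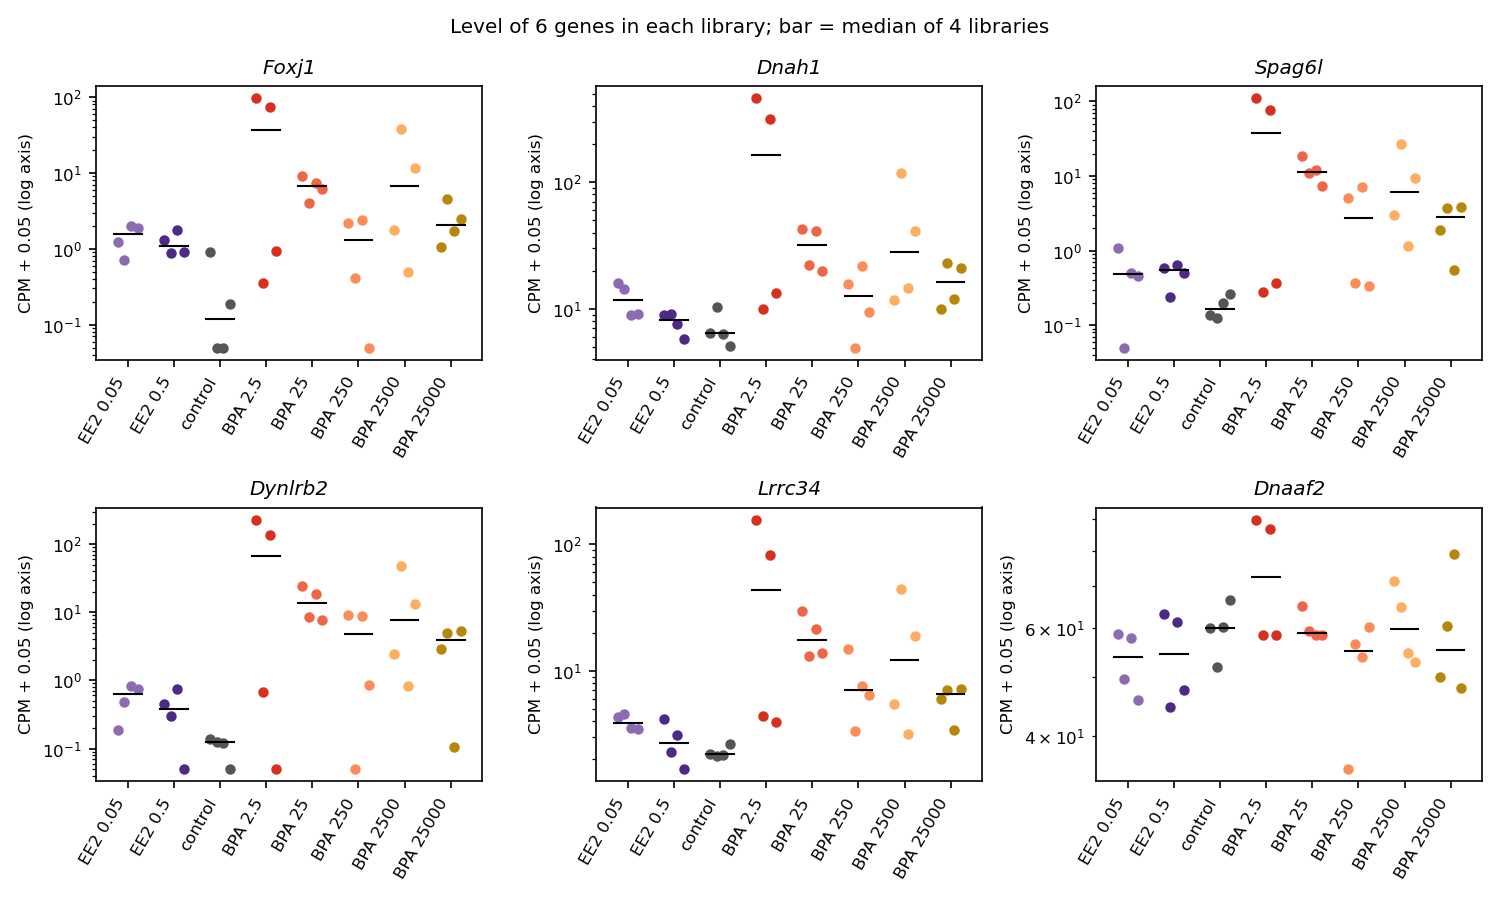
Level of 6 genes in each library (points, CPM + 0.05 on a log axis) by group, with a bar at the median of 4 libraries. Foxj1, Dnah1, Spag6l, Dynlrb2 and Lrrc34 show a split BPA 2.5 group and a compact BPA 25 group above control, while Dnaaf2 shows a narrower spread, from 35.4 to 89.7 CPM over the 32 libraries and from 51.8 to 66.4 CPM in control.

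The higher BPA doses gave no calls among the members in the fit over all groups. At BPA 2500, 0 of 62 were called by edgeR, as were 0.0% of all genes. An unadjusted p under 0.05 was found for 32 members (10.2% of all genes). DESeq2 called 14 (0.654% of all genes) and limma voom 0 (0% of all genes). The median log2 fold change was 1.71, against 0.01 for all genes. Foxj1 had 1.74, 37.7, 0.446 and 11.7 CPM in BPA 2500 libraries, against 0 to 0.862 CPM in control libraries, with a log2 fold change of 5.75 ± 1.48 (edgeR adjusted p = 0.246). Libraries 2 and 4 were the high ones at this dose, and 18 of the 68 members had all 4 libraries above control, against 4.22% of all genes tested. Without BPA 2.5 libraries 1 and 3, 13 members were called higher at BPA 2500, against 0.244% of all genes in either direction. Foxj1 was among them (5.74 ± 1.18, edgeR adjusted p = 0.0377). When BPA 2500 library 2 was left out as well, an alternative chosen after the values were seen, 0 members were called by edgeR. In that fit 0% of all genes were called at BPA 2500, and Foxj1 had an edgeR adjusted p of 0.254.

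At BPA 250, 0 of 62 members were called by edgeR although 8.79% of all genes were, and 13 had an unadjusted p under 0.05, against 28.6% of all genes. DESeq2 called 7 (13.8% of all genes) and limma voom 4 (22.5% of all genes). With BPA 2.5 libraries 1 and 3 left out, edgeR called 6, of which Dnaaf5 was lower, against 9.95% of all genes. Foxj1 had 2.17, 0.363, 2.32 and 0 CPM in BPA 250 libraries, which overlapped the control libraries. At BPA 25000, 0 of 62 were called by edgeR while 2.32% of all genes were, and 15 had an unadjusted p under 0.05, against 19.3% of all genes. DESeq2 called 4 (5.9% of all genes) and limma voom 5 (30.9% of all genes), and edgeR called 2 with BPA 2.5 libraries 1 and 3 left out (2.62% of all genes). Foxj1 had 0.996, 4.45, 1.65 and 2.4 CPM in BPA 25000 libraries, all above the control libraries. All 4 libraries were above all control libraries in 6 members at BPA 250 (9.5% of all genes tested) and in 14 at BPA 25000 (6.16% of all genes tested). Dnaaf5 at BPA 250 (9.77% of all genes tested) and Cfap20 and Cfap418 at BPA 25000 (7.14%) had all 4 libraries below control.

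No member was called at either EE2 dose by edgeR, DESeq2 or limma voom. At EE2 0.05, 0 of 62 members were called by edgeR (0.0451% of all genes), and 0 had an unadjusted p under 0.05 (11.5% of all genes). At EE2 0.5, 0 were called by edgeR (0.556% of all genes), and 2, Rfx2 and Cfap157, had an unadjusted p under 0.05 (15.6% of all genes). Over all genes, DESeq2 called 0.498% at EE2 0.05 and 3.68% at EE2 0.5, and limma voom 10.3% and 9.17%. The median log2 fold changes were 0.07 at EE2 0.05 and 0.06 at EE2 0.5, against -0.01 and 0.00 for all genes. Foxj1 had 1.18, 0.659, 1.93 and 1.82 CPM in EE2 0.05 libraries and 1.25, 0.823, 1.74 and 0.86 CPM in EE2 0.5 libraries, against 0.862, 0, 0 and 0.139 CPM in control libraries. At these depths, values under 1 CPM rest on few counts. All 4 libraries were above control in 7 members at EE2 0.05 (5.71% of all genes tested) and in 1 at EE2 0.5 (6.8% of all genes tested).

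Over all exposed groups, an F test called 51 of the 62 members, against 31.7% of all genes (edgeR), led by Dnaaf3 (adjusted p = 7.4e-05), Dnai3 (9.28e-05), Ccdc40 (9.7e-05) and Dnah1 (0.000102). BPA 2.5 was also set against the mean of the other BPA doses, a contrast chosen with results of these data known. It called 52 members higher and 0 lower, against 12.2% of all genes higher and 6.39% lower, with a median log2 difference of 2.58. Drc3 differed by 2.61 ± 0.40 and Rsph10b by 3.17 ± 0.49 (both edgeR adjusted p = 0.000256). Without BPA 2.5 libraries 1 and 3, this contrast called 0 members, against 3.08% of all genes. A linear contrast on log10 dose, fitted to the 5 BPA doses, called 19 members, all lower at higher doses, against 3.42% of all genes lower. Ccdc39 had the smallest p (-0.53 ± 0.10, log2 per unit of the contrast, edgeR adjusted p = 0.00992), with 27.1, 35, 24 and 33.7 CPM in BPA 25000 libraries. Only 1 of the 19 calls held whichever library was left out, and 0 members were called without BPA 2.5 libraries 1 and 3, against 1.62% of all genes.

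The proportions among members were compared between libraries. For 38 members that were over 10-fold above the control mean and had at least 100 counts in BPA 2.5 library 1, the excess over the control mean was expressed as a percentage of that library. Since the level in that library chose the genes, the percentages are a description. The median was 68.2% in BPA 2.5 library 3 (quartiles 59.6% to 76.4%), and 0.0301% and 0.121% in libraries 2 and 4. It was 8.27%, 3.66%, 8.22% and 3.76% in BPA 25 libraries, where single genes spread widely (quartiles 2.27% and 6.09%, lowest -1.38% and highest 10.5% in library 2). The median was 1.63%, -0.236%, 2.55% and 0% in BPA 250 libraries, and 1.49%, 24.9%, 0.59% and 7.81% in BPA 2500 libraries. Quartiles in BPA 2500 library 2 were 21.9% and 27.3%, a narrower spread relative to the median than in BPA 25 library 2. BPA 25000 libraries had 0.683%, 3.02%, 0.735% and 2.44%, and control libraries lay between -0.0884% and 0.104%.

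**Figure D4:**
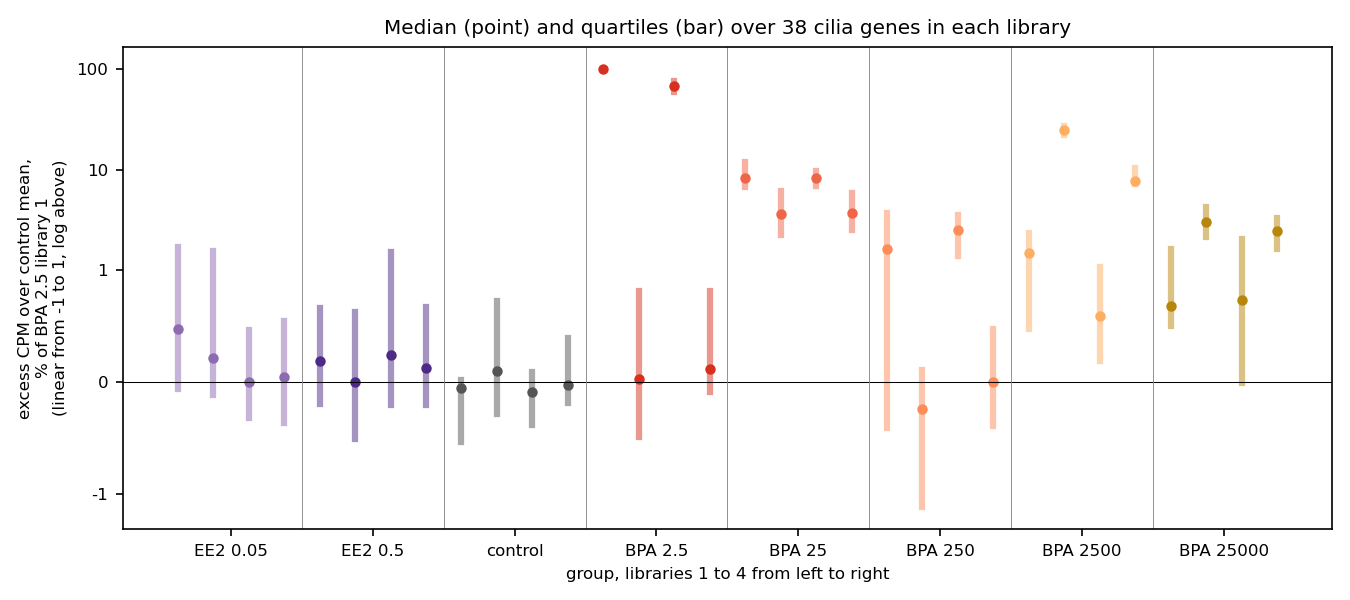
Excess CPM over the control mean as a percentage of BPA 2.5 library 1, as median (point) and quartiles (bar) of 38 cilia genes, for each library. The axis is linear between -1 and 1 and logarithmic beyond. BPA 2.5 library 3 stands at 68.2%, BPA 2500 library 2 at 24.9% and the BPA 25 libraries between 3.66% and 8.27%, while EE2 and control libraries stay near 0.

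The likeness among members was measured as the Pearson correlation of log2 CPM with the mean of the other tested members over the 32 libraries, given without a p because libraries share groups and depth. It exceeded 0.9 for 25 members and was under 0.5 for 8. After Dnah1, the highest were Drc1 (0.959), Ccdc40 (0.957), Drc7 (0.955), Lrrc34 (0.952) and Cfap95 (0.947). The lowest were Tektip1 (-0.316), Cfap410 (0.242), Tekt3 (0.261), Cfap418 (0.289), Cfap20dc (0.330) and Cfap97 (0.332). Tektip1 had 7.79, 10.2, 11.4 and 16.6 CPM in BPA 2.5 libraries, against 9.74, 11.1, 11.6 and 9.82 CPM in control libraries. The lowest of these values was in BPA 2.5 library 1, where most members were highest. Over all 32 libraries its lowest value was 7.575 CPM, in BPA 250 library 3.

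Other genes of the pathway were read from 3 lists. Of 12 tested regulators of multiciliation, 5 rose at BPA 2.5 (Deup1, Tp73, Cep63, Rfx1 and Odf2), against 7.06% of all genes, with a median log2 fold change of 0.59 over the 12. Deup1, which builds the deuterosome that multiplies centrioles, had 8.37, 0, 5.4 and 0 CPM in BPA 2.5 libraries, against 0.259, 0.222, 0.0725 and 0.209 CPM in control libraries. Tp73, a transcription factor of the multiciliated lineage, had 42.8, 0, 25 and 0.446 CPM in BPA 2.5 libraries and no counts in the control libraries. Of 57 other axonemal or ciliated cell genes, 48 rose at BPA 2.5, against 7.06% of all genes, with a median of 4.07. At BPA 25, 1 of the 57 was called higher, the water channel gene Aqp4, a share near the 0.954% of all genes. Aqp4 had 145, 1.39, 87.3 and 1.34 CPM in BPA 2.5 libraries and 32.8, 13.8, 20.7 and 9.73 CPM in BPA 25 libraries, against 1.03, 0.296, 0.652 and 0.487 CPM in control libraries. Of 42 genes of intraflagellar transport and primary cilia, which nearly all cells carry, 20 rose at BPA 2.5, against 7.06% of all genes. The median log2 fold change of the 42 was 0.77, against 0.05 for all genes. Ift172, a transport subunit, had 162, 42.9, 124 and 42.1 CPM in BPA 2.5 libraries, against 41.8, 31.4, 29.4 and 32.7 CPM in control libraries. BPA 2.5 libraries 1 and 3 were the highest pair of that group in 4 of the 5 called regulators (not in Rfx1), in all 48 called axonemal genes and in 17 of the 20 called genes of intraflagellar transport and primary cilia (not in Bbs5, Inpp5e and Evc). Evc had 20.7, 26.3, 26.1 and 25.8 CPM in BPA 2.5 libraries, against 17.4, 18.1, 15.4 and 19.2 CPM in control libraries.

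Markers of other cell types were summed in the same libraries. Uterine epithelial markers had 2945, 1465, 2959 and 4345 CPM in BPA 2.5 libraries, against 4119, 1919, 4333 and 3880 CPM in control libraries, and 0 of 13 tested were called by edgeR at BPA 2.5. Oviduct secretory markers had 210, 82.8, 220 and 172 CPM in BPA 2.5 libraries, against 150.5, 73.2, 164 and 135 CPM in control libraries, with 0 of 5 tested called by edgeR. Of these, Ovgp1 and Muc16 were not analysed here and Crisp1 was at 0 in every library. Pax8, a Müllerian epithelial factor in this list, had 58.6, 21.8, 57.3 and 39.8 CPM in BPA 2.5 libraries, against 20, 17.4, 25.7 and 22.6 CPM in control libraries. It was not called, was picked after its values were seen, and does not stand for the list. In BPA 2.5 libraries 1 and 3 the stroma sum was 5630 and 6398 CPM, against 6457 to 17458 CPM in control libraries, and the smooth muscle sum was 10690 and 12197 CPM, against 17925 to 34355 CPM in control libraries. The male germ cell sum, relevant because sperm flagella share most of these genes, was 13.3, 15.3, 9.9 and 6.7 CPM in BPA 2.5 libraries, against 13.03 to 25.61 CPM in control libraries. Of its 10 markers, 1 had enough counts to be tested and was not called at BPA 2.5. Prm1, Tnp1 and Acrv1 were at 0 in every library, while the others had counts. Endothelial markers summed to 405 and 435 CPM in BPA 2.5 libraries 1 and 3, against 556 to 617 CPM in control libraries. Of 9 tested stratified squamous markers, 3 rose at BPA 2.5 (Krt5, Krt10 and Krt14), against 7.06% of all genes. The squamous sum was 30.2, 48.6, 38.7 and 46.5 CPM in BPA 2.5 libraries, against 12.8 to 28.1 CPM in control libraries, and ran from 10.2 to 428 CPM in EE2 0.05 libraries. Of 4 tested mesothelial markers, Upk1b was called lower at BPA 2.5 (log2 fold change -0.69). The ovary sum ran from 20.2 to 130 CPM in BPA 2.5 libraries, against 12.8 to 45.8 CPM in control libraries. The ranges at BPA 2.5 and in control were 256 to 755 and 88.9 to 623 CPM for fat. They were 99.4 to 185 and 94.6 to 144 CPM for immune markers, and 39.4 to 346 and 75.3 to 323 CPM for skeletal muscle. No tested marker of these lists was called at BPA 2.5. The part of the cell makeup of the samples in the cilia result was not tested.

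Some values carry a counting limit. By the RefSeq annotation of assembly GRCr8, 34 members overlap another gene, and 15 overlap a gene of the counts table. Among them are Ccdc39 with Ttc14, Dnai4 with Mier1, Rsph1 with Slc37a1 and Saxo2 with Adamtsl3. The counts were made against build rn5, where overlaps may differ. The use of strand in counting is not given in the sources used here, so reads of such pairs could not be assigned with certainty. Spag6l and Rsph10b belong to families with close copies, and how reads that match several copies were counted is not given either.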

How the data were processed

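RNA of 32 rat uterus samples was sequenced on an Illumina platform, per the labels' protocols. The authors deposited 1 table of whole-number read counts per gene, not normalized; per the submitters' processing notes, bcl2fastq, TopHat and edgeR were used against build rn5. Versions, annotation and strand setting were not given in the sources used here. Identifiers were matched to RefSeq symbols (assembly GRCr8, used for names, promoter sequences and gene positions only): 17167 matched and 160, with 1.82% of counts, did not.

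Groups came from the labels. In R 4.3.3, edgeR 4.0.16 was run with filterByExpr (minimum count 10, minimum total 15; 13312 genes kept), TMM scaling and a quasi-likelihood fit of 1 mean per group over all 8 groups, with Benjamini-Hochberg adjustment over all genes and a threshold of 0.05. On simulated counts for BPA 2.5 versus control (13312 genes, 200 changed), 52.5% of 2-fold and 85.5% of 4-fold changes were recovered. The simulation shifted all BPA 2.5 libraries alike, unlike the split within that group in the data. These rates therefore do not give the recovery for the members. Alternatives used DESeq2 1.42.0, limma 3.58.1 (voom with sample weights), other filters and scaling, and left-out libraries. Bounds use a floor of 3 counts over the control group. Intervals and floors cover counting error only. Scripts in Python 3.11.15 summarised the tables.

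The members and lists were chosen with earlier results of these data known. Full statistics were given for a panel by role and for the 12 members with the smallest p among those called in each comparison; genes in other lists were described by counts, with examples chosen after their values were seen.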

Additional observations from a re-analysis of the deposited data

Results flagged for a closer look

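In 2 of 176 groups of 4 libraries, the log2 CPM of 1 cilia gene in 1 library stood apart from the other 3, with a gap over the group's range above Dixon's 95% critical value; chance gives about 1 in 20 such groups. Dnaaf3 in EE2 0.5 library 3 had a log2 CPM of -0.28, against -0.99 to -0.92 in the other 3 libraries, a gap of 0.902 of the range. Cfap45 in EE2 0.05 library 3 had a log2 CPM of -1.17, against 0.96 to 1.18 in the other 3, a gap of 0.905 of the range. Both genes are low in these groups and rest on few counts.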

How the results depend on the processing

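Percentages in brackets are the share of all genes called in the same fit. At BPA 2.5, 47 members were called (11.4%). The count was 45 to 54 under DESeq2 size factors (11.4%), no filter (9.24%), a filter of 1 CPM (11.7%), DESeq2 (14.8%) and limma voom (30.8%). The EE2 doses gave 0 under every setting. Without a filter, BPA 25 gave 2 (1.02%) and the dose trend 12 (3.08%). DESeq2 gave 17 at BPA 25 (8.44%), 7 at BPA 250 (13.8%), 14 at BPA 2500 (0.654%) and 4 at BPA 25000 (5.9%). Limma voom gave 7 at BPA 25 (19.9%), 4 at BPA 250 (22.5%), 5 at BPA 25000 (30.9%) and 45 for the trend (20.3%). With only the groups compared, the counts were 0 at BPA 2.5 (0.457%), 27 at BPA 25 (9.63%), 3 at BPA 250 (9.77%), 2 at BPA 25000 (2.26%) and 0 for the trend (0.0151%). Without BPA 2.5 libraries 1 and 3, they were 1 (2.97%), 21 (4.44%), 6 (9.95%), 13 (0.244%) and 2 (2.62%) from BPA 2.5 to BPA 25000, 0 for BPA 2.5 against the other doses (3.08%) and 0 for the trend (1.62%). Without the 4 libraries of low correlation, they were 1 (3.92%), 26 (10.2%), 3 (6.58%), 18 (0.551%) and 5 (5.59%), then 1 (Spag6l, lower; 5.49%) and 0 (1.19%). Without BPA 2.5 libraries 1 and 3 and BPA 2500 library 2, chosen after seeing the data, they were 1 (2.82%), 22 (3.84%), 10 (9.15%), 0 (0%) and 3 (2.11%), then 0 (3.51%) and 0 (2.27%), and the F test gave 28 (24.5%). The cause was not tested beyond the libraries removed.

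Leaving out 1 library gave 32 to 52 at BPA 2.5 (lowest without BPA 2.5 library 1; 4.42% to 14.8%), 0 to 8 at BPA 25 (0% to 3.89%), 0 to 3 at BPA 250 (1.33% to 11.9%), 0 to 0 at BPA 2500 (0%) and BPA 25000 (0.0149% to 3.74%), 41 to 54 for the F test (26% to 37.8%), 21 to 56 against the other doses (6.62% to 26.7%) and 1 to 45 for the trend (0.515% to 12%). Of the 47 calls at BPA 2.5, 32 held in every such fit.

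Under the 3 settings without several libraries, in the order above, log2 fold changes at BPA 2.5 turned to -0.14, -0.13 and -0.13 for Rfx3, -1.63, -1.63 and -1.62 for Dnai1, -0.93, -0.91 and -0.91 for Rsph1, -0.18, -0.16 and -0.17 for Tekt4, -1.14, -1.12 and -1.12 for Cfap52, and -0.72, -0.71 and -0.71 for Cfap45. No paired analysis was possible because the labels name no animal or litter, and a library number does not link libraries of different groups. Of the 62 tested members, 33 reached the filter's level in all 4 control libraries, and the others rest on low control counts.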

Other observations

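Among 12769 genes outside the rule with sufficient expression, 44 followed the mean of the cilia genes with a Pearson correlation over 0.9 across the 32 libraries. These were chosen for their pattern, so the values are descriptions. The closest were Ccdc17 (r = 0.977) and P2rx6 (r = 0.968), followed by Vwa3a, Trpv2, Tmem212, Terf2ip, Bbof1, Ccdc146, Aurkb, Kif9, Aqp4 and Ttll9. Aurkb, which encodes a mitotic kinase of the chromosomal passenger complex, had 921 and 779 CPM in BPA 2.5 libraries 1 and 3, 38.5 to 96.6 CPM in BPA 25 libraries, and at most 14.1 CPM in control libraries. Its partners in that complex and the proliferation marker Mki67 did not follow: the correlations with the cilia mean were -0.13 for Incenp, -0.11 for Birc5, -0.10 for Cdca8 and -0.26 for Mki67. Tmem107, a neighbour of Aurkb in the RefSeq annotation that encodes a cilium transition zone protein, had a correlation of 0.70, and the other neighbour Ctc1 had 0.27.

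The counts of Gas2l2 and Cfap418 were even numbers in all 32 libraries, as were those of 202 of the 13572 genes with at least 100 counts (1.49%).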
